A study of Homo sapiens with 6 samples.

Results

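The genes of sterol and fatty acid synthesis make up 33 of the 29806 genes listed in RNA-seq counts of LNCaP parental and LNCaP PACT KO prostate cancer cells. They were listed by name for their place in the pathway, with earlier results of these data known, and were found by their NCBI Gene numbers. The rule that lists them uses no measured value. The group holds 19 enzymes of cholesterol synthesis, 5 regulators that sense sterols or drive the pathway, and 9 enzymes that make, elongate or desaturate fatty acids. All 33 were detected well enough to be tested. In PACT KO cells 24 of the 33 were lower and 2 were higher, where 18.8% and 15.3% of all genes tested were. Of the 19 sterol enzymes 16 were lower, by small amounts, and 3 were not called, with log2 fold changes from -0.47 to 0.08. The fatty acid enzymes were more uneven, with an SD of the log2 fold change of 0.56 against 0.13, or 0.26 without *FADS1* and *FADS2*. The desaturases *FADS1* and *FADS2* fell most, and 4 of the 9 were not lower.

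LNCaP is an established human prostate cancer cell line that responds to androgen. PACT is a double-stranded RNA-binding protein encoded by *PRKRA*. The study asked how gene expression changes when PACT is removed from these cells. The LNCaP parental group was the unedited wild type line. The PACT KO group was the same line edited by CRISPR/Cas9 with a guide against exon 2 of *PRKRA*, sorted by fluorescence and grown from single colonies. The study's supplement states that a single verified clone served for the later experiments. Both groups grew in RPMI-1640 medium with 10% fetal bovine serum, and RNA was taken 48 h after plating. Each group has 3 libraries, which are dishes plated in parallel. The p-values therefore measure the spread between dishes. Effects of the knockout and traits of the colony that was picked cannot be told apart.

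Cells build cholesterol from acetyl-CoA through mevalonate, farnesyl diphosphate, squalene and lanosterol. Fatty acid synthesis starts from the same acetyl-CoA, which ATP-citrate lyase and acetyl-CoA synthetase supply to acetyl-CoA carboxylase and fatty acid synthase. Both branches are known targets of the SREBP transcription factors. SCAP escorts these factors from the endoplasmic reticulum for activation and INSIG proteins hold them back when sterols are plentiful. Prostate cancer cells are known for active lipid synthesis, and androgen raises many of these enzymes in LNCaP cells.

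The reads counted on genes ranged from 19930060 to 24940838 per library, and PACT KO replicate 3 was the smallest. A total of 14462 genes passed the filter on low counts. Levels are given as CPM (reads of a gene scaled to a common library total by the TMM method), with mean and SD over 3 dishes. A gene was called lower or higher when the quasi-likelihood test of edgeR gave a false discovery rate (FDR) under 0.01, and a DEG (differentially expressed gene) if it also changed by at least 1.5-fold. *PRKRA* had 882, 809 and 866 counts in LNCaP parental replicates 1, 2 and 3 and 291, 331 and 243 counts in PACT KO replicates 1, 2 and 3. All 10 markers of luminal prostate cells were detected. Of 6 basal markers, *KRT5* and *KRT15* had 0 counts in every library and *KRT14* and *TP63* at most 4. *ITGA6* (34.2 CPM in parental cells) and *DST* (23.4 CPM) gave nearly all of the list's summed 53.8 to 58.9 CPM per library, and neither was called. Of 8 stromal markers, *COL1A2* had 0 counts throughout and *DCN*, *LUM* and *PDGFRA* at most 6. The summed CPM of the list was 39.3 to 45.0 in parental and 71.5 to 76.2 in PACT KO libraries, mostly from *VIM* and *COL1A1*. These 2 genes were higher, *VIM* with a log2 fold change of 1.99 (edgeR FDR 8.16e-21) and *COL1A1* with 0.52 (edgeR FDR 1.98e-10). *COL3A1* and *PDGFRB* were not called. In bulk RNA, fewer cells of a type and less RNA per cell cannot be told apart.

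Stretches upstream of some members are shown because the pathway is known for shared promoter letters. The sterol regulatory element bound by SREBP is searched for as TCACCCCA, and the CCAAT box bound by NF-Y as CCAAT, each on both strands. Sequences are from RefSeq (GRCh38.p14), 5′ to 3′ on the gene's strand, with matches to either motif in capitals, and also to a looser form of the sterol element, TCACNCCAC, which adds the last capital in *SREBF2*. *MVK* and *SREBF2* are shown for their sterol element and *MVD*, *MSMO1*, *INSIG1* and *SCD* for CCAAT boxes in members that fell. *STARD4* carries CCAAT boxes as well and rose. *FADS2*, the member that fell most, had neither motif in the window searched around the annotated start of the gene. Any other start site of *FADS2* was not searched, so the gene may hold either motif elsewhere.
MVK chr12:109573589-109573618 (+): ttcgcagttcTCACCCCAgggcgggacact
SREBF2 chr22:41832962-41832991 (+): tgacgcgccaTCACCCCACgcaccgcttcg
MVD chr16:88663162-88663297 (-): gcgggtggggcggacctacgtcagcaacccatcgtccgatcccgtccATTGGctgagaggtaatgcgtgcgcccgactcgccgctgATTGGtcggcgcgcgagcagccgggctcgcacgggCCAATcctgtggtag
MSMO1 chr4:165327419-165327622 (+): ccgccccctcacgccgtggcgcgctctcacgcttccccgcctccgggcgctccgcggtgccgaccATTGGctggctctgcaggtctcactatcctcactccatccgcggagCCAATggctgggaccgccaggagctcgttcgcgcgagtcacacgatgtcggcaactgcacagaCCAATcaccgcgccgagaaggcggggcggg
INSIG1 chr7:155297628-155297775 (+): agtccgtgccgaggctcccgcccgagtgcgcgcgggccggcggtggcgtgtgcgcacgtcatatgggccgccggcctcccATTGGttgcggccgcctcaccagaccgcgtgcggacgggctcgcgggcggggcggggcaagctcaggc
SCD chr10:100346983-100347123 (+): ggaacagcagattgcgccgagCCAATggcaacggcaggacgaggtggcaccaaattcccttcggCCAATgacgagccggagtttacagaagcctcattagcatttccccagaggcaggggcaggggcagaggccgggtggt
STARD4 chr5:111512591-111512785 (-): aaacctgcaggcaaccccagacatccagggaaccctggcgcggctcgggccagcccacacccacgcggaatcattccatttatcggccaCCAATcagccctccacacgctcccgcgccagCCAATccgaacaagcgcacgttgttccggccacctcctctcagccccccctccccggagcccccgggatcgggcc
FADS2 chr11:61816149-61816202 (+): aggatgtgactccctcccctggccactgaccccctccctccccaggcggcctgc

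The 24 lower members are 72.7% of the 33, against 18.8% of all genes tested that were lower. The 2 higher members, *STARD4* and *ELOVL6*, are 6.06%, against 15.3% of all genes tested. *FADS1* and *FADS2* were the 2 lower DEGs, where 2.65% of all genes tested were lower DEGs. The count of higher DEGs among the members was 0, where 3.07% of all genes tested were higher DEGs. In 30 members the CPM of the PACT KO replicates did not overlap those of the parental replicates, 27 lying below and 3 above, while the groups did not overlap in 52.2% of all genes tested. With 3 dishes against 3, an exact permutation test of 1 gene cannot give a p under 0.1, so the calls rest on the model fitted across all genes.

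**Figure D1:**
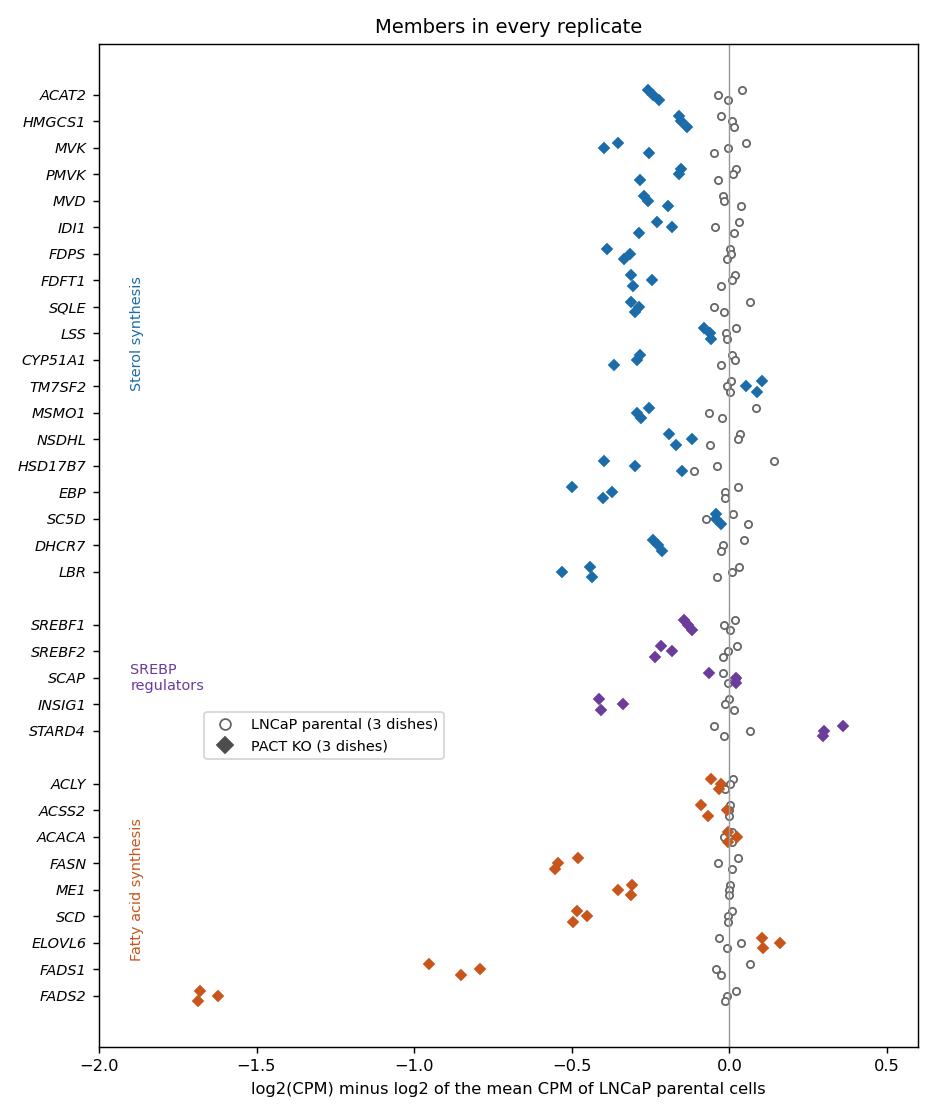
Level of each member in every replicate as log2(CPM) minus the log2 of the mean CPM of LNCaP parental cells, with open circles for the 3 parental dishes and filled diamonds for the 3 PACT KO dishes. The PACT KO dishes of all sterol enzymes except *TM7SF2* sit below 0, from near it in *SC5D* to lowest in *LBR*. Those of the fatty acid enzymes run from above 0 in *ELOVL6* to far below it in *FADS2*.

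The 19 sterol enzymes had a median log2 fold change of -0.24, against 0.000438 over all genes tested. Of the 19, 16 were lower, 0 were higher and *LSS*, *TM7SF2* and *SC5D* were not called. The lower enzymes are 84.2% of the arm, against 18.8% of all genes tested, and that 18.8% also stands beside the arm's parts below. The summed level of the arm was 2283, 2232 and 2227 CPM in the parental replicates and 1934, 1958 and 1949 CPM in the PACT KO replicates, 13.3% lower. The changes stayed small, and 15 of the 19 moved by less than 0.32 on the log2 scale, up or down.

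All 7 members that act between acetyl-CoA and farnesyl diphosphate, which are not every enzyme of that route, were lower, with a median log2 fold change of -0.24. *ACAT2*, which joins acetyl-CoA units at the start of the pathway, changed by a log2 of -0.24, and *HMGCS1*, which makes HMG-CoA from its product, by -0.15, the smallest fall of the 7. The mevalonate kinase *MVK* had a log2 fold change of -0.34 (SE 0.05). *PMVK*, the next kinase, had -0.19 and *MVD*, which removes carbon dioxide to give isopentenyl diphosphate, had -0.24. *IDI1*, the isomerase of that product, had a log2 fold change of -0.23. The edgeR FDR of these 6 genes lay between 8.72e-08 for *ACAT2* and 4.30e-04 for *MVD*.

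*FDPS* makes farnesyl diphosphate, the branch point between sterols and the lipids attached to proteins. It had 4171, 3981 and 4527 counts in the parental replicates and 3467, 3586 and 2944 counts in the PACT KO replicates. Its level was 184 ± 0.68 CPM and 144 ± 3.70 CPM (SD, n = 3 each), with no overlap. The log2 fold change was -0.35 (SE 0.03, edgeR FDR 1.40e-12), the largest of the 7.

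Among the 12 enzymes from squalene onward, 9 were lower, with a median log2 fold change of -0.28. *FDFT1*, the squalene synthase that commits farnesyl diphosphate to sterols, had 8373, 7928 and 8872 counts in parental and 7257, 7473 and 5960 counts in PACT KO replicates. It fell by 0.29 on the log2 scale (SE 0.03, edgeR FDR 2.17e-11), from 365 ± 5.58 to 299 ± 7.53 CPM (SD, n = 3 each). *SQLE*, which oxidises squalene and is a slow step of the pathway, had a log2 fold change of -0.30 (edgeR FDR 1.36e-07). *LSS*, the cyclase that forms lanosterol, went from 175 to 167 CPM and was not called (log2 fold change -0.07, 95% interval -0.12 to -0.01, edgeR FDR 0.0489). Its PACT KO values lay below all of its parental values, but the groups did not overlap in 52.2% of all genes tested.

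*CYP51A1*, the P450 that takes the first methyl group off lanosterol, had 3208, 3077 and 3418 counts in parental and 2851, 2788 and 2206 counts in PACT KO replicates. Its level fell from 141 ± 2.25 to 113 ± 3.43 CPM (SD, n = 3 each; log2 fold change -0.31, edgeR FDR 1.08e-10). The genes of the next demethylation steps followed, with log2 fold changes of -0.28 for *MSMO1*, -0.16 for *NSDHL* and -0.28 for *HSD17B7*. The calls of *NSDHL* and *HSD17B7* depended on the settings, since *NSDHL* missed the threshold in 7 alternatives and *HSD17B7* missed it without LNCaP parental replicate 1 (FDR 0.0145).

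The step after *CYP51A1* can be carried out by either of 2 proteins that reduce the sterol at C14, *TM7SF2* and *LBR*, and these moved apart. *LBR*, which also anchors chromatin at the inner nuclear membrane as the lamin B receptor, had 1437, 1346 and 1494 counts in parental and 1127, 1042 and 926 counts in PACT KO replicates. It had the largest fall of the arm, from 62.0 ± 1.5 to 44.8 ± 1.66 CPM (SD, n = 3 each), and its log2 fold change was -0.47 (SE 0.04, edgeR FDR 2.79e-12). *TM7SF2* had 253 ± 1.31 CPM in parental and 267 ± 4.85 CPM in PACT KO cells. All 3 PACT KO values lay above the parental ones, where 52.2% of all genes tested had groups that did not overlap. The log2 fold change of *TM7SF2*, 0.08, was not called (95% interval 0.03 to 0.13, edgeR FDR 0.0122), although it passed in 7 alternatives. Per kilobase of exon, *TM7SF2* was the more abundant of the pair, at 74.1 CPM per kb in parental cells against 11.8 CPM per kb for *LBR*.

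*EBP*, the sterol isomerase that follows, had 2166, 2004 and 2294 counts in parental and 1637, 1758 and 1432 counts in PACT KO replicates, a log2 fold change of -0.42 (SE 0.04). *SC5D*, the desaturase after it, had 72.9 ± 3.41 and 71.1 ± 0.44 CPM (SD, n = 3 each), with overlapping replicates and a 95% interval of the log2 fold change from -0.11 to 0.03 (edgeR FDR 0.423). *DHCR7*, the last reductase of this branch, had a log2 fold change of -0.23 (edgeR FDR 1.93e-08). The uncalled *SC5D* thus lay between lower genes on both sides in the order of the pathway.

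The 5 regulators did not move as a group, and 3 were lower, 1 was higher and 1 was not called. The shares were 60% lower and 20% higher, against 18.8% and 15.3% of all genes tested. *SREBF2* encodes SREBP2, the factor best known for sterol genes. It had 7571, 7068 and 8020 counts in parental and 6969, 7031 and 5636 counts in PACT KO replicates. The level went from 328 ± 4.91 to 283 ± 5.28 CPM (SD, n = 3 each; log2 fold change -0.21, edgeR FDR 2.45e-08). *SREBF1*, whose products act mainly on fatty acid genes, had 10473, 9734 and 11302 counts in parental and 10186, 10125 and 8497 counts in PACT KO replicates. Its log2 fold change was -0.13 (SE 0.03, edgeR FDR 5.37e-05), and none of its PACT KO values in CPM reached the parental range.

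*SCAP*, the escort protein, had 2371, 2324 and 2614 counts in parental and 2499, 2613 and 2173 counts in PACT KO replicates, or 106 ± 1.55 and 105 ± 3.65 CPM (SD, n = 3 each). The groups overlapped and the 95% interval of the log2 fold change was -0.07 to 0.06 (edgeR FDR 0.883). *INSIG1*, which retains SCAP and is itself an SREBP target, had 3228, 3052 and 3561 counts in parental and 2643, 2740 and 2169 counts in PACT KO replicates. With 142 ± 1.33 CPM before and 109 ± 3.20 CPM after (SD, n = 3 each), it had the largest fall of the regulators, -0.39 on the log2 scale (SE 0.03, edgeR FDR 3.97e-13). *STARD4*, a carrier that moves cholesterol between membranes and is also known as an SREBP2 target, had 644, 664 and 718 counts in parental and 931, 880 and 730 counts in PACT KO replicates. It rose from 29.4 ± 1.22 to 36.7 ± 0.89 CPM (SD, n = 3 each; log2 fold change 0.32, edgeR FDR 2.63e-06), and the groups did not overlap.

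In the fatty acid arm 5 of 9 enzymes were lower, *ELOVL6* was higher and *ACLY*, *ACSS2* and *ACACA* were not called. The shares were 55.6% lower and 11.1% higher, against 18.8% and 15.3% of all genes tested. The median log2 fold change was -0.33. The summed level was 5684, 5560 and 5613 CPM in the parental replicates and 4198, 4212 and 4142 CPM in the PACT KO replicates, 25.5% lower, or 19.3% lower without *FADS1* and *FADS2*.

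*ACLY*, which splits citrate into cytosolic acetyl-CoA, had 16591, 15724 and 17798 counts in parental and 17213, 17334 and 14340 counts in PACT KO replicates. The 95% interval of its log2 fold change was -0.09 to 0.01 (edgeR FDR 0.214). *ACSS2*, which makes acetyl-CoA from acetate, had 1932, 1838 and 2102 counts in parental and 1974, 2055 and 1641 counts in PACT KO replicates, with an interval of -0.12 to 0.01 (edgeR FDR 0.208). Neither enzyme of acetyl-CoA supply passed the threshold. Their PACT KO values in CPM lay below the parental ones, but 52.2% of all genes tested also had groups that did not overlap. *ACACA*, the carboxylase that commits acetyl-CoA to fatty acids, had 18446, 17241 and 20132 counts in parental and 19901, 19957 and 16268 counts in PACT KO replicates, or 808 ± 8.80 and 810.2 ± 8.97 CPM (SD, n = 3 each). Its groups overlapped, and the 95% interval was -0.04 to 0.05 (edgeR FDR 0.897).

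*FASN*, the synthase that assembles palmitate, had 40619, 37034 and 43701 counts in parental and 31126, 29311 and 24186 counts in PACT KO replicates. It fell from 1755 ± 38.9 to 1220.4 ± 34.4 CPM (SD, n = 3 each), by 0.52 on the log2 scale (SE 0.03, edgeR FDR 4.89e-19). *SCD*, which places the double bond of oleate and was the most abundant member per kilobase of exon (239 CPM per kb in parental cells, then *FASN* at 187), had 29326, 27680 and 31673 counts in parental and 22698, 22820 and 18404 counts in PACT KO replicates. Its level fell from 1284 ± 6.98 to 922 ± 14.4 CPM (SD, n = 3 each; log2 fold change -0.48, edgeR FDR 1.94e-18). These falls of 30.5% and 28.1% stayed under the 1.5-fold limit for a DEG. *ME1*, the malic enzyme that supplies NADPH for the chain, had 3309, 3143 and 3603 counts in parental and 2905, 2769 and 2368 counts in PACT KO replicates, and was 20.2% lower (log2 fold change -0.33, edgeR FDR 1.43e-11).

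*ELOVL6*, the elongase that extends palmitate to stearate, went the other way. It had 1300, 1301 and 1445 counts in parental and 1556, 1593 and 1277 counts in PACT KO replicates, or 58.6 ± 1.47 and 63.9 ± 1.41 CPM (SD, n = 3 each). Its groups did not overlap and its log2 fold change was 0.13 (edgeR FDR 0.00655), but the call was lost in 5 alternatives, where its FDR lay between 0.0124 and 0.036.

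*FADS1* and *FADS2* are the delta-5 and delta-6 desaturases, which turn the dietary essential fatty acids into arachidonic acid and other long polyunsaturated fatty acids. *FADS2* had 15169, 14168 and 16153 counts in parental and 5076, 5206 and 4142 counts in PACT KO replicates, or 668, 655 and 652 CPM against 205, 214 and 205 CPM. Its log2 fold change of -1.66 (SE 0.03, edgeR FDR 1.73e-34) is a level 68.4% lower, and its p-value ranked 1 among the 14462 genes tested. By size of the fall it did not rank 1, since 62 genes tested had a log2 fold change below -2. *FADS1* had 2360, 2088 and 2419 counts in parental and 1269, 1398 and 1114 counts in PACT KO replicates, or 104, 96.6 and 97.7 CPM against 51.4, 57.5 and 55.1 CPM. It was 45.0% lower (log2 fold change -0.86, SE 0.04, edgeR FDR 3.31e-20). Both genes kept their DEG call in each alternative tried at the 1.5-fold limit, and every PACT KO replicate lay far below the parental range.

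**Figure D2:**
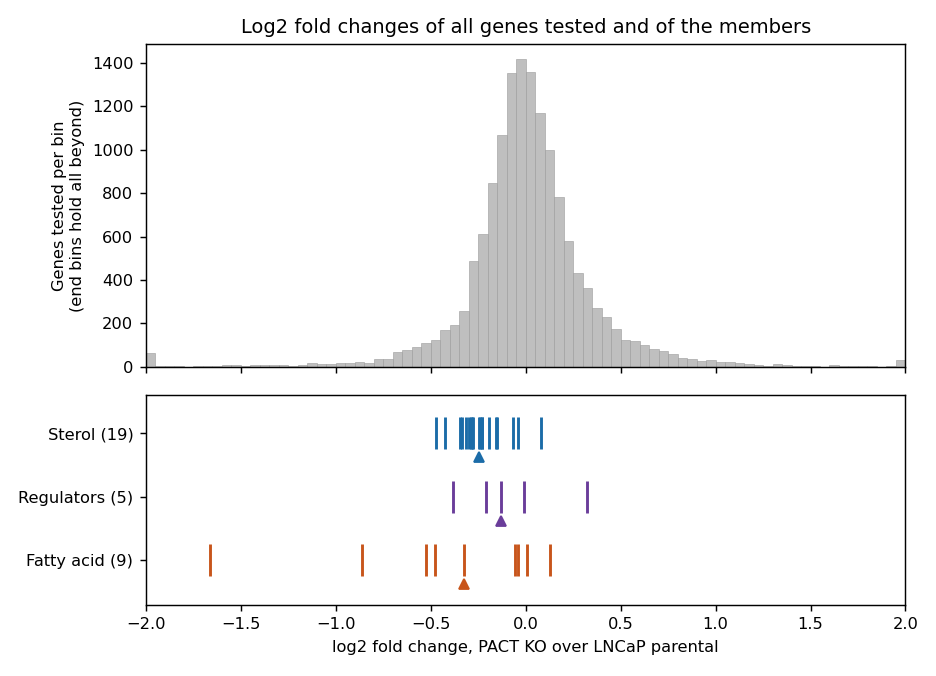
Upper panel, number of genes tested in each bin of the log2 fold change of PACT KO over LNCaP parental cells, with 62 genes below -2 and 29 above 2 drawn in the end bins. Lower panel, each member as a tick by arm with a triangle at the arm's median, where the 19 sterol ticks cluster near -0.24 and the 9 fatty acid ticks spread from -1.66 to 0.13.

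Set side by side, the median log2 fold change was -0.24 in the sterol arm and -0.33 in the fatty acid arm. The SD of the log2 fold change over genes was 0.13 in the sterol arm, 0.56 in the fatty acid arm and 0.26 in the fatty acid arm without *FADS1* and *FADS2*. Without that pair the median of the remaining 7 fatty acid enzymes was -0.05, nearer to 0 than that of the sterol arm, since *ACLY*, *ACSS2*, *ACACA* and *ELOVL6* moved by less than 0.32 on the log2 scale. The difference between the arms was not tested, and genes of a pathway are not independent replicates.

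*FADS1* and *FADS2* lie next to each other on chromosome 11, at chr11:61799627-61817003 and chr11:61816203-61867354 in GRCh38.p14, head to head on opposite strands. Their annotated spans overlap by 801 bases, and whether reads were counted by strand is not given in the sources used here, so reads of the overlap cannot be assigned to either gene with certainty. *FEN1*, a nuclease of DNA replication on the far side of *FADS1*, was also lower, from 79.3 ± 3.90 to 54.2 ± 1.83 CPM (SD, n = 3 each; log2 fold change -0.55, edgeR FDR 2.68e-14). *FADS3*, the third gene of the family and the neighbour of *FADS2*, went from 26.8 ± 0.31 to 30.7 ± 2.67 CPM (SD, n = 3 each) and was higher, with a log2 fold change of 0.19 (edgeR FDR 0.00904). Further out, *TMEM258*, *MYRF*, *DAGLA*, *RAB3IL1*, *BEST1* and *FTH1* were not called, with log2 fold changes from -0.08 to 0.22. The genes called lower here were thus 3 consecutive genes. The log2 fold change of *FEN1* was also close to the median of a list for dividing cells described below, -0.55. The part of position in these values was not tested.

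A clone can carry shifts of whole chromosome regions, so up to 10 tested genes on each side of every member were looked at. *IDI1* had 15 such neighbours in all and *LSS* had 17. The median log2 fold change of these neighbours was between -0.22 and 0.07 around the sterol enzymes, and 18 of the 19 enzymes lay below the median of their own neighbours. *MVD* stood closest, with -0.24 beside a neighbour median of -0.22. Around *FADS2* the neighbour median was -0.06, and around *FASN* it was -0.13. *STARD4* had the highest neighbour median of all members, 0.14 beside its own 0.32. The part of regional shifts in the members' values was not tested.

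Some members overlap other tested genes, so their reads may be shared where strand was not used. *ACAT2* overlaps *TCP1* (log2 fold change -0.24), *SOD2* and *SOD2-OT1*, *MVK* overlaps *MMAB* (-0.27), *IDI1* overlaps *WDR37*, *FDPS* overlaps *RUSC1-AS1* and *SREBF1* overlaps *RAI1*.

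Promoters of 300 bases, from 250 before to 50 after the start site, were at hand for 29 of the 33 members, all except *ACAT2*, *FDFT1*, *SQLE* and *FASN*. CCAAT on either strand was present in 18 of the 29 (62.1%), against 35.7% of the 27305 promoters of all genes and 36.9% of those of genes tested. In the sterol arm 12 of 16 promoters held it (75%), and in the fatty acid arm 3 of 8 (37.5%). *MVD* and *MSMO1*, printed above, hold 3 each within the stretch shown. The median log2 fold change of members with and without CCAAT was -0.24 and -0.27 in the sterol arm, -0.21 and -0.07 in the regulators and -0.05 and -0.33 in the fatty acid arm.

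TCACCCCA was present in 3 of the 29 promoters (10.3%), those of *MVK*, *SREBF2* and *ME1*, against 1.47% of all promoters. All 3 genes were lower, as were 72.7% of all members, and the match in *ME1* lies after the start site. The looser form TCACNCCAC, which overlaps the stricter match in *SREBF2*, was present in *SREBF2* alone and in 1.15% of all promoters. Among the genes tested, those with TCACCCCA had a median log2 fold change of 0.06 and those without it 0.00 (-0.00367). The Sp1 box GGGCGG was present in 26 of 29 (89.7%), against 69.5% of genes tested, and the E-box CACGTG in 4 of 29 (13.8%), against 10.3%. *FADS2* held none of these motifs in its window, which says only that these letters are not in it. Any other start site of a member was not searched.

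Genes around the pathway were read from 8 lists of 111 genes in all, compiled from general knowledge of the pathway. The remaining sterol synthesis genes and their electron donors resembled the sterol arm, with 8 of 12 lower, 0 higher and a median log2 fold change of -0.13. Examples are *TMEM97*, a membrane protein of the endoplasmic reticulum, which fell from 99.3 ± 0.55 to 75.4 ± 1.69 CPM (SD, n = 3 each; log2 fold change -0.40, edgeR FDR 1.62e-12), and *CYB5B*, a cytochrome b5 (-0.29). The suppliers of NADPH, which both arms consume, had 8 of 10 lower and 0 higher, with a median of -0.21. *TKT*, the transketolase of the pentose phosphate pathway, had a log2 fold change of -0.42 (732 to 546 CPM), *TALDO1*, its transaldolase, -0.24, and *PGD*, its second NADPH-making enzyme, -0.22. These lists held the highest shares of lower genes around the pathway, 66.7% and 80%, against 18.8% of all genes tested.

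Of the proteins that process SREBP or degrade its targets, 1 of 11 was lower and 1 was higher (9.09% each), against 18.8% and 15.3% of all genes tested. *RNF145*, a ubiquitin ligase, had a log2 fold change of -0.23 and *ERLIN2*, which helps degrade enzymes of the pathway at the endoplasmic reticulum, 0.16. Of the genes for lipoprotein uptake and lysosomal cholesterol, 4 of 10 tested were lower (40%) and 1 was higher (10%), with the same shares of all genes for comparison here and in the lists that follow. *NPC1*, which exports cholesterol from lysosomes, fell from 64.6 ± 2.80 to 47.8 ± 2.10 CPM (SD, n = 3 each; log2 fold change -0.43, edgeR FDR 3.89e-11), and *LRP8*, a lipoprotein receptor, also had -0.43. *SCARB1*, the receptor for high-density lipoprotein, had a log2 fold change of -0.27.

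Of the genes for cholesterol efflux and storage or for the sterol-activated receptor LXR, 3 of 10 tested were lower (30%) and 2 were higher (20%). The 2 were the exporters *ABCA1* (35.5 ± 0.94 to 49.1 ± 0.78 CPM, log2 fold change 0.47, edgeR FDR 1.28e-11) and *ABCG1* (37.9 ± 0.96 to 50.2 ± 2.65 CPM, log2 fold change 0.41, edgeR FDR 8.37e-10), with SD over 3 dishes each. These 2 exporters were thus higher where most genes of cholesterol synthesis were lower, but their list went both ways, with a median log2 fold change of -0.03. *PLIN2*, a coat protein of lipid droplets, was a lower DEG at a low level (1.19 ± 0.27 to 0.41 ± 0.10 CPM, edgeR FDR 2.24e-04), and *NR1H3*, which encodes LXR alpha, had a log2 fold change of -0.25. In the isoprenoid branches that leave the mevalonate pathway before sterols, 3 of 14 genes were lower (21.4%, near the share of all genes) and 0 higher, with a median of 0.00 (-0.00462). The 3 were *ICMT*, which methylates prenylated proteins (log2 fold change -0.18), *PDSS1*, an enzyme of the coenzyme Q side chain (-0.47), and *RABGGTB*, a subunit of the transferase that prenylates Rab proteins (-0.11).

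Of the other enzymes of fatty acid synthesis and elongation, 7 of 20 tested were lower (35%) and 2 were higher (10%). *HSD17B12*, the reductase of the elongation cycle, fell from 67.7 ± 0.69 to 36.5 ± 1.84 CPM (SD, n = 3 each). It was a lower DEG, with a log2 fold change of -0.90 (edgeR FDR 4.26e-20). *SCD5*, the second stearoyl-CoA desaturase of human cells, rose from 17.7 ± 0.33 to 34.8 ± 3.53 CPM (SD, n = 3 each). It was a higher DEG, with a log2 fold change of 0.97 (edgeR FDR 6.28e-15). The desaturases *SCD* and *SCD5* therefore changed in opposite directions. Also lower were *CS*, the citrate synthase (log2 fold change -0.22), and *ELOVL1*, an elongase of very long chains (-0.25). Of the acyl-CoA synthetases and enzymes of glycerolipid synthesis, 4 of 18 were lower (22.2%, near the share of all genes) and 5 were higher (27.8%). The lipins *LPIN1* and *LPIN2*, which make diacylglycerol, had log2 fold changes of -0.31 and 0.22. Higher genes included *GPAM*, which starts glycerolipid synthesis (0.24), and *ACSL4*, which activates arachidonic acid (10.6 to 16.3 CPM, log2 fold change 0.62, edgeR FDR 8.24e-08).

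**Figure D3:**
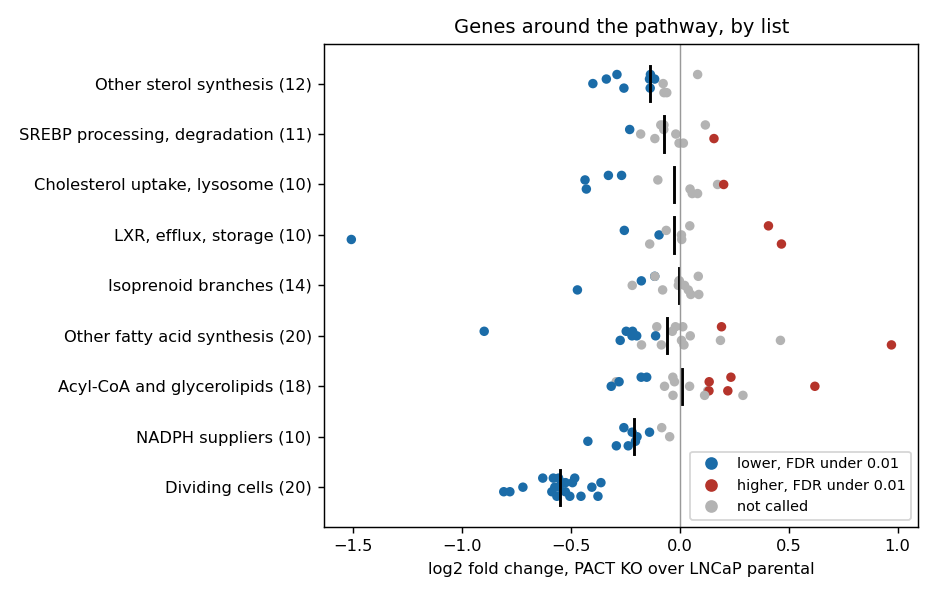
Log2 fold change of PACT KO over LNCaP parental cells for the genes tested in each list around the pathway, with the number tested in parentheses, blue for lower and red for higher at an FDR under 0.01, and a black bar at the list's median. Other sterol genes, NADPH suppliers and genes of dividing cells lie mostly below 0, while the efflux, fatty acid and glycerolipid lists reach both sides.

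Other sets of genes moved in the same comparison. All 20 genes of a list for dividing cells were lower, against 18.8% of all genes tested. Their median log2 fold change was -0.55, with a summed level of 2289 to 2344 CPM in parental and 1548 to 1641 CPM in PACT KO libraries. Of 14 androgen-regulated genes, 5 were lower (35.7%) and 6 were higher (42.9%), against 18.8% and 15.3% of all genes tested. That list was led by *KLK3*, the gene of prostate-specific antigen (log2 fold change -2.50). The part of either set in the values of the lipid synthesis genes was not tested.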

How the data were processed

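PolyA RNA of 6 dishes was sequenced, and the authors deposited whole-number read counts per NCBI Gene number, without normalization. The submitters' processing notes name bcl2fastq 2.20.0.422, STAR 2.5.3a, StringTie 1.3.3, featureCounts 1.5.3 and the build hg38. Which annotation was used, and whether strand was, is not given in the sources used here. Libraries held 19930060 to 24940838 counts. How much of the spread between dishes was counting error was not worked out for the members. A row without a gene number, 0.0688% to 0.0708% of a library's counts, was left out.

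Genes were kept by filterByExpr, scaled by TMM and compared with glmQLFit and glmQLFTest, with defaults, in edgeR 4.0.16 (R 4.3.3), which was checked on simulated counts. Tests were 2-sided with Benjamini-Hochberg adjustment over 14462 genes. Standard errors are the absolute log2 fold change divided by the square root of F. The thresholds of FDR under 0.01 and 1.5-fold follow the study's methods, which name edgeR and TMM. CPM use the TMM factors, and exon lengths for CPM per kb are from GENCODE release 29. Symbols were matched through the RefSeq table of GRCh38.p14 for 27540 of 29806 genes. Promoters are the RefSeq windows, and printed stretches were limited to bases outside annotated exons, except for short windows at sterol elements.

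The members and the lists were chosen with earlier results of these data known. All members are named. Counts per replicate are given for every fatty acid enzyme, for the regulators and for the 5 sterol enzymes with the smallest p. Genes of the 8 related lists are named from the 4 called genes with the smallest p in each, less a few whose results are not reported here. The alternatives tried were the exact test, the likelihood ratio test and glmTreat of edgeR, DESeq2 1.42.0, limma-voom (limma 3.58.1), 3 scalings, 2 filters, a replicate block, other thresholds and each library left out. Plots used Python 3.11.15 and matplotlib 3.10.9.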

Additional observations from a re-analysis of the deposited data

How the results depend on the processing

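No called member and no median of an arm changed direction under any of the 19 alternatives in which it was computed, while the uncalled *ACACA* and *SCAP*, both near 0, took either sign. The number of lower members stayed between 22 and 25 and that of lower DEGs at 2, except that a lower limit on the fold change, 0.32 on the log2 scale, gave 10 lower and 1 higher. Under DESeq2, and with the replicate number as a block, 1 member was higher in place of 2, because *ELOVL6* was lost. Medians by arm moved toward 0 with upper quartile factors (sterol -0.2196, regulators -0.1075) and with library totals only (sterol -0.2143, regulators -0.102, fatty acid -0.2958). These scalings shifted the median of all genes by 0.024 and 0.0292. When 1 library at a time was left out, 22 to 24 members were lower and 1 to 2 higher. The medians then ran from -0.2602 to -0.2226 in the sterol arm, from -0.1416 to -0.1201 in the regulators and from -0.33 to -0.3104 in the fatty acid arm. The call of *HSD17B7* was lost without LNCaP parental replicate 1 (FDR 0.0145), and *ELOVL6* was lost without LNCaP parental replicate 1 or 3 or PACT KO replicate 2 (FDR 0.0342, 0.0178 and 0.036). *NSDHL* was lost under DESeq2, both scalings above and without LNCaP parental replicate 1 or 2 or PACT KO replicate 1 or 3 (FDR 0.0135 to 0.0345 over these 7). *TM7SF2* passed as higher in 7 alternatives, with an FDR of 0.000645 to 0.00905. The cause was not tested. Same-numbered dishes did not deviate together (correlations -0.0938, 0.00286 and -0.0862). Counting noise enters these correlations, so a weak effect shared by same-numbered dishes could go unseen. The block changed no call of a member other than that of *ELOVL6*.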
